A study of Mus musculus with 20 samples.

Results

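Young adult hair follicle stem cells of male mice on a normal diet were compared at 5 and 2 months of age, in resting follicles. The comparison used 6 of the 20 arrays of the series: the 3 telogen arrays of 5-month-old mice that had been on the normal diet (ND) for 3 months, and the 3 telogen arrays of 2-month-old mice that had been on it for 4 days. The arrays were grouped by their labels, and the comparison was chosen with earlier results of these data known. All genes that passed the background filter given below were included. The other 14 arrays came from mice on a high fat diet (HFD) for the same times and at the same ages, from 24-month-old mice, and from single anagen samples of each condition. Both ND groups were male and carried no transgene or drug treatment named in the labels. Age, time on the diet and array slide set them apart, and whether anything else did cannot be told from the labels. The sources used here do not name the strain or say how the cells were isolated. The labels number the 3 samples of a group but do not say that they came from separate mice, so the tests below measure the spread between samples.

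Hair follicle stem cells sit in the bulge, the part of the follicle below the sebaceous gland that is kept through every hair cycle. In telogen the follicle rests and the stem cells stay quiescent under BMP and FGF signals from the bulge and from the skin around it; Wnt and hedgehog signals bring on anagen, the growth phase, in which they divide and rebuild the lower follicle. Mouse follicles stay in telogen for longer as the animal matures, so that the resting follicle of a young adult can be sampled at several ages.

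RNA was hybridised to 1-colour Agilent mouse arrays, on which a short probe per transcript glows in proportion to the labelled RNA bound to it. Levels are given as scaled signal, the log2 of a probe's signal over the 75th percentile of its array, and differences as 5 minus 2 months on that log2 scale, where 1 stands for 2-fold. Levels are compared between samples of the same probe and not between genes. Of 22911 genes with a named probe, 18354 passed the scanner's test for signal well above background on all 3 arrays of 1 age or of both, and were tested, and 16400 of these were so on all 6 arrays. Between 73.7% and 77.6% of the spots of a 5-month array passed it, and between 77.1% and 83.5% of those of a 2-month array. The 5-month arrays all lay on 1 slide and the 2-month arrays all on another, so slide and age cannot be told apart in this comparison. Across the tested genes the 5-month arrays correlated with each other at 0.926 to 0.930, the 2-month arrays at 0.875 to 0.899, and arrays of different age at 0.878 to 0.917. The number of arrays limits the precision: the 95% interval of a gene's difference had a median half-width of 1.13.

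The markers of the bulge were present at both ages and lay close together. Krt15, a keratin of bulge cells, read 6.77, 6.76 and 6.84 at 5 months and 6.46, 7.01 and 6.96 at 2 months. Cd34, the surface protein by which bulge cells are often sorted, read 5.69, 5.49 and 5.56 at 5 months and 5.38, 5.80 and 5.62 at 2 months. In both genes the 5-month arrays lay inside the range of the 2-month arrays. Their differences were -0.02 with a 95% half-width of 0.64 for Krt15 and -0.02 with a half-width of 0.58 for Cd34, so differences of up to about that size in either direction were not detectable here. Lhx2, a transcription factor that keeps bulge cells quiescent, differed by 0.03 ± 0.26 (SE), and Sox9, which specifies follicle stem cells, by -0.15 ± 0.36. Lgr5, a receptor for R-spondins on the lower bulge and hair germ, differed by -0.11 ± 0.36, and Nfatc1, a calcium-regulated factor of quiescent bulge cells, by 0.15 ± 0.32; a second probe of Nfatc1 gave -0.65. Of 24 bulge genes, 12 lay above 0 and 12 below, with a median of 0.01, and their differences ran from -0.37 to 0.63. The median was -0.15 over all genes tested, but 0.04 for genes as bright as the bulge genes.

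**Figure D1:**
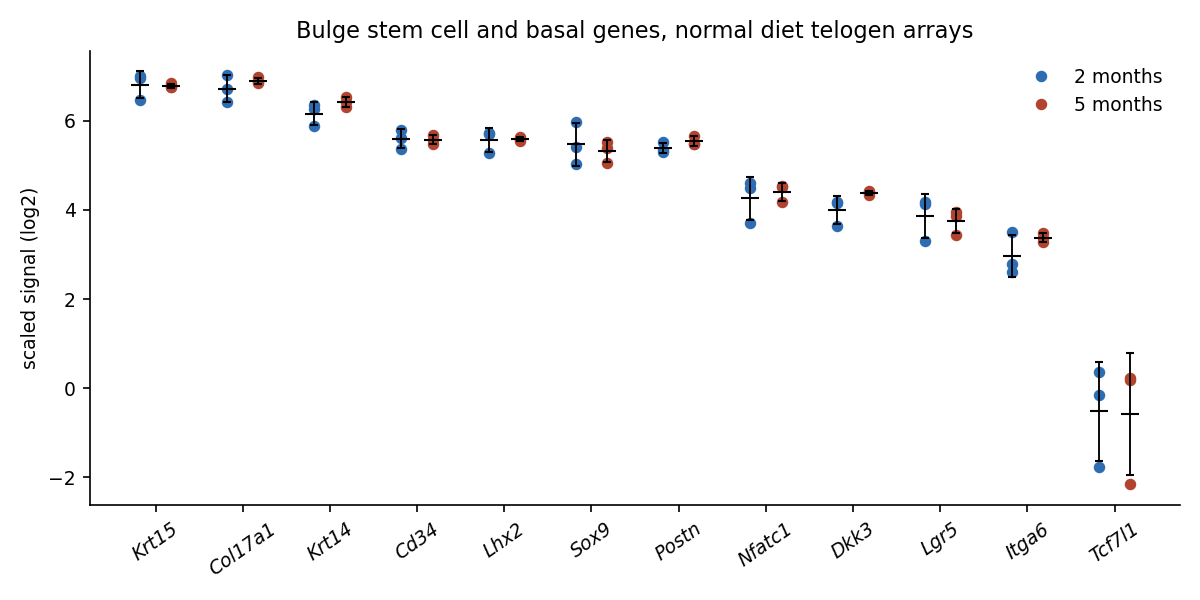
Scaled signal (log2, vertical axis) of 12 bulge and basal genes on the 3 ND telogen arrays of 2-month-old mice (blue) and of 5-month-old mice (red); points are arrays, and black bars show the mean and SD of the 3. For Krt15, Cd34, Lhx2 and Sox9 the red points lie inside the range of the blue points, and for Dkk3 the red points at 4.34 to 4.43 lie above the blue points at 3.63 to 4.18.

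No bulge gene passed the test (0.0163% of all genes did), and the 5- and 2-month arrays separated for 2 of the 24, both higher at 5 months. Dkk3, a secreted protein of the Dickkopf family made by bulge cells, read 4.34, 4.43 and 4.40 at 5 months and 3.63, 4.17 and 4.18 at 2 months, a difference of 0.39 ± 0.23. Nfib, a transcription factor by which bulge cells hold their neighbouring melanocyte stem cells in check, read 4.98, 5.09 and 5.00 against 4.68, 4.75 and 4.93, a difference of 0.24 ± 0.21, while its other probe gave -0.02. Over all genes, groups were separate with 5 months higher in 4.44% and lower in 19.7%, so 2 of 24 is to be read against those shares. They mix bright and dim genes, and the bulge genes are bright. In the brightest of 10 equal groups by signal, 23 of 1836 genes were higher and 21 lower at an unadjusted p under 0.05. Genes known to hold the bulge in telogen also lay near 0: Foxc1 differed by -0.37 ± 0.40, Fgf18 by -0.01 ± 0.77 and Bmp6 by 0.15 ± 0.94. Fgf18 and Bmp6 varied widely between the samples of a group, so their intervals reached 1.67 and 2.04 to either side.

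At an adjusted p under 0.05 (limma's moderated test, Benjamini-Hochberg over all 18354 genes), 3 genes passed, or 0.0163%. One rose from 2 to 5 months and 2 fell. Gm28154, a predicted long noncoding RNA of no known function here, read 1.33, 1.17 and 1.40 at 5 months against -2.32, -1.43 and -2.20 at 2 months. All 3 samples of 5 months lay far above all 3 of 2 months, a 9.73-fold rise (log2 3.28 ± 0.35, adjusted p = 0.0111). It falls outside the rule for named genes, which leaves out predicted genes, and is named because it passed. On HFD it read 1.76, 0.98 and 1.46 at 5 months and -0.13, -0.44 and -0.44 at 2 months, which also did not overlap, with a difference of 1.74 ± 0.35 (adjusted p = 0.151).

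Ddx28, an RNA helicase needed to assemble the mitochondrial ribosome, read -2.80, -1.98 and -2.50 at 5 months and 0.37, 0.07 and 0.48 at 2 months. It fell by 2.73 ± 0.36 on the log2 scale (adjusted p = 0.0322), with the groups far apart. On HFD it read -0.38, -0.33 and -1.37 at 5 months against -0.86, -1.14 and -1.26 at 2 months, which overlapped, and the mean of the 24-month-old mice was -0.02 ± 0.49 (SD, n = 3). The 39 oxidative phosphorylation genes tested, which work in the same organelle, had a median of -0.04, with 12 above 0 and none past the test.

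These 3 calls were not stable. All 3 were lost in a fit of the 6 arrays alone and when any 1 of the 5-month samples or 2-month sample 1 was left out, and Ddx28 also without 2-month sample 3 and with a trended variance. With slide as a block over all 20 arrays, where the slide term rests on single anagen arrays, Gm28154 differed by 0.44 ± 1.46 and Ddx28 by -0.88 ± 1.28.

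**Figure D2:**
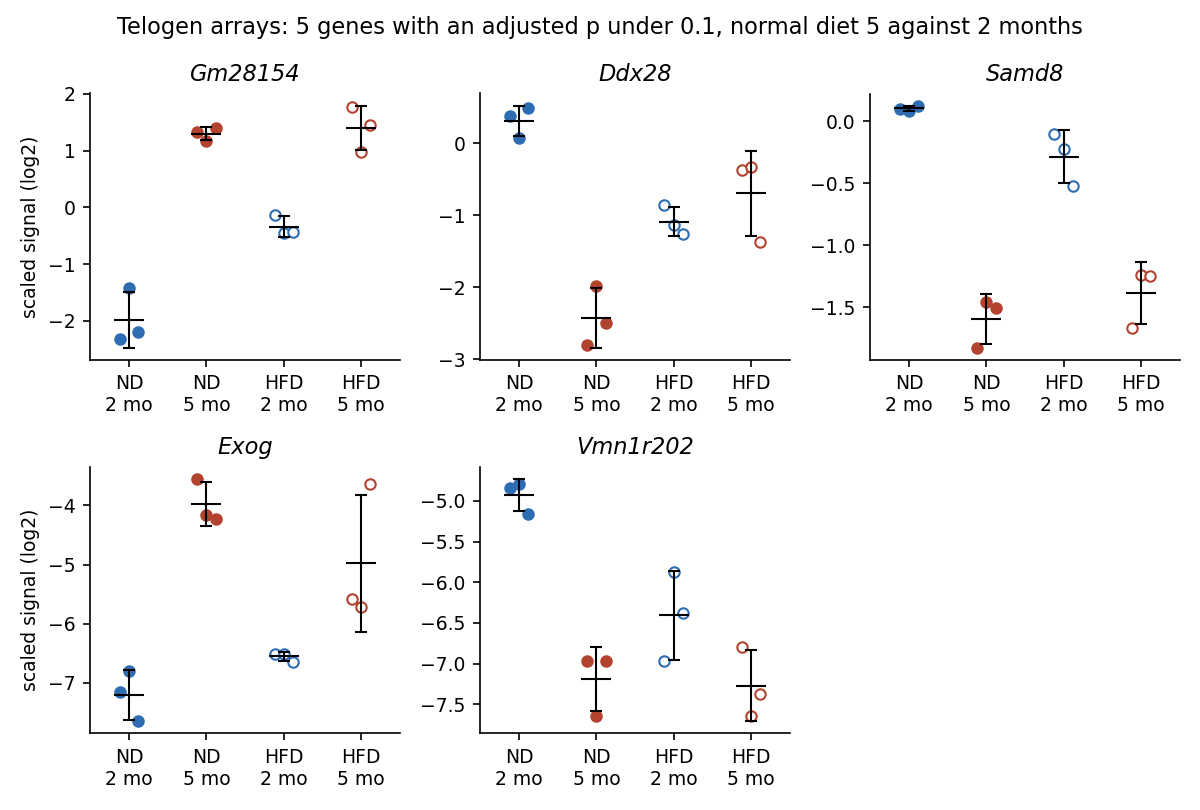
Scaled signal (log2, vertical axis, own scale per gene) of 5 genes with an adjusted p under 0.1, on telogen arrays of ND (filled) and HFD (open) mice at 2 months (blue) and 5 months (red); points are arrays, and black bars show the mean and SD of 3. The ND groups are apart in all 5 genes, and for Ddx28 the HFD groups overlap.

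Another 3 genes had an adjusted p between 0.05 and 0.1. Exog, a nuclease of the mitochondrial inner membrane, read -3.56, -4.16 and -4.24 at 5 months and -7.16, -6.80 and -7.64 at 2 months, where no array detected it, at least 3.82-fold higher at 5 months (adjusted p = 0.0554). Such a bound sets the mean of the brighter group against a floor for each array of the dimmer one, either the dimmest signal that passed the background test there or the probe's own signal where that is higher. Samd8, an enzyme of sphingolipid synthesis related to sphingomyelin synthases, read -1.83, -1.46 and -1.51 against 0.10, 0.08 and 0.13, a difference of -1.70 ± 0.25 (adjusted p = 0.0554). The 2-month samples of Samd8 lay very close to each other, and on HFD the same gene differed by -1.10 ± 0.25 with separate groups, on the same pair of slides. With slide as a block Samd8 differed by 0.13 ± 0.48. Vmn1r202, a vomeronasal receptor best known from sensory neurons, read -6.97, -7.64 and -6.97 against -4.84, -4.80 and -5.16, at least 1.71-fold lower at 5 months (adjusted p = 0.0819). With slide as a block Exog differed by -0.29 ± 1.56 and Vmn1r202 by -0.40 ± 1.83.

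By the rule for named genes, the 15 genes with the smallest p in each direction are described here, most of which did not pass. The 15 higher at 5 months had adjusted p of 0.0554 to 0.198. Exog, Ppp1r3d, Meis2 and Stx19 were above background on no 2-month array and are given as bounds, and the differences of the others ran from 2.52 to 5.02. In 7 of the 15 the gene was well above background on fewer than 3 of the 2-month arrays. Ppp1r3d, which directs a phosphatase to glycogen, read -0.95, -1.11 and -2.65 at 5 months and -7.97 on each of the 2-month arrays, where it was not above background, at least 20.3-fold higher. Meis2, a homeobox transcription factor, read -4.47, -1.84 and 0.72 against -8.38, -7.16 and -7.97, at least 16.6-fold higher, with a spread of over 5 log2 units between the 5-month samples. Ccnj, a cyclin, read -1.33, -0.02 and 0.03 against -5.32, -5.80 and -5.27.

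Further genes of that group concern death receptor signalling, the cell cycle and matrix. Tradd, the adaptor of tumour necrosis factor receptors, read 1.20, 0.44 and 1.57 at 5 months and -2.04, -0.66 and -2.46 at 2 months (difference 2.79 ± 0.47, adjusted p = 0.119). Rb1, the retinoblastoma protein that holds cells out of S phase, read 1.18, 0.23 and 1.38 against -1.32, -2.87 and -0.59 (2.52 ± 0.57, adjusted p = 0.198), while its other probe gave 0.28. Prelp, a proteoglycan that anchors basement membranes to collagen, read 1.42, -0.26 and 0.27 against -4.32, -3.41 and -3.43 (4.20 ± 0.94, adjusted p = 0.198). Both probes of Prelp lay well above 0, at 3.47 and 4.20, and on HFD it differed by 4.52 ± 0.94. Cep152 of the centriole, the deubiquitinase Atxn3, the antigen-presentation protein Tapbpl and the ubiquitin ligase adaptors Asb3 and Dcaf5 lay between 3.13 and 3.85, and Zswim9 at 2.77. The syntaxin Stx19 was at least 13.7-fold higher at 5 months. Arhgap27, a regulator of small GTPases, gave 3.31 from its brightest probe and -1.78 from another of its 3.

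The HFD 2-month arrays give a further set at the younger age. In 9 of the 15 the mean of the HFD 2-month arrays was nearer to that of the ND 5-month arrays than to that of the ND 2-month arrays. Ccnj read 1.03, -0.19 and 0.78 on the HFD 2-month arrays, and Rb1 read 1.09, 0.33 and 1.27. Tradd read 0.34, 0.22 and -0.06 there, also above all 3 ND 2-month values. The genes were picked for their ND difference, and no gene passed the test of the difference between diets, given at the end.

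The 15 lower at 5 months had adjusted p of 0.0322 to 0.190. In 7 of the 15 the gene was well above background on fewer than 3 of the 5-month arrays. Beside Ddx28, Samd8 and Vmn1r202 they held 5 olfactory receptors, Olfr1276, Olfr469, Olfr1270, Olfr319 and Olfr394. Calca, the precursor of calcitonin and of the sensory nerve peptide CGRP, read -4.68, -5.01 and -5.16 at 5 months and -3.17, -3.15 and -1.96 at 2 months (-2.19 ± 0.42, adjusted p = 0.190). Anxa3, an annexin that binds membranes with calcium, read -4.11, -4.29 and -4.32 against -2.59, -2.53 and -2.04 (-1.86 ± 0.35, adjusted p = 0.188). The zinc finger gene Zfp982 differed by -3.88, and the serpin Serpinb6e, the inflammasome-family gene Nlrp4f and the synaptic scaffold gene Bsn by -1.94, -1.74 and -1.88, while the other probe of Nlrp4f gave -0.21. With slide as a block Anxa3 differed by 3.77 ± 0.86, and Serpinb6e and Nlrp4f each by 0.41. Calca, Zfp982 and Bsn stayed below 0 in that fit, at -1.10, -1.49 and -0.32. Of the 15, 13 also lay below 0 on HFD, where 41.4% of all genes lay above 0 and dim genes mostly below, and 9 of the 15 higher genes lay above 0 there. In 6 of the 15 lower genes the HFD 2-month mean was nearer to the ND 5-month mean than to the ND 2-month mean.

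The distribution of all genes leaned to one side. At an unadjusted p under 0.05, 526 genes (2.87%) were higher and 1683 (9.17%) lower at 5 months. Over all genes 41.2% lay above 0 and 58.8% below. The lean went with signal, as seen when genes were put in 10 equal groups by mean level. In the dimmest group the median difference was -0.52 and 17.8% lay above 0, in the middle group 5 the median was -0.19, and in the brightest group it was 0.04 with 57.1% above 0. The 526 higher genes had a median level of -0.24 and the 1683 lower genes one of -2.79, against -0.80 over all genes. The filter let in genes that were well above background on all 3 arrays of only 1 age, 1483 at 2 months and 471 at 5 months. Such genes are prone to read lower at the other age, so the ND counts here and those of the receptors below hold a share of this selection. Its size was not tested.

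**Figure D3:**
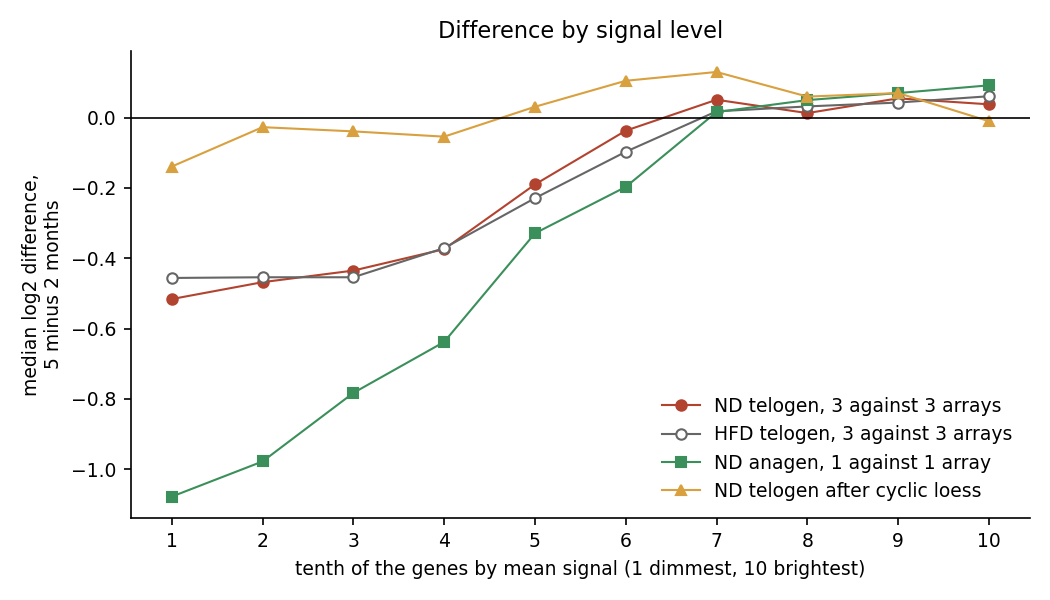
Median log2 difference, 5 minus 2 months (vertical axis), of the genes in each of 10 equal groups by mean signal (horizontal axis, dimmest on the left), for ND telogen (red), HFD telogen (grey), the single ND anagen arrays (green) and ND telogen after cyclic loess normalization (gold). The red line runs from -0.52 in the dimmest group to 0.04 in the brightest, and the grey line follows it.

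The same lean appeared in 2 sets of other samples of those ages that lay on the same slides. On HFD the dimmest group had a median of -0.46 and the brightest of 0.06, and between the single ND anagen arrays these were -1.08 and 0.09. With cyclic loess, a normalization that takes out shifts depending on signal and was chosen after the lean was seen, the dimmest group went to -0.14 and the median of all genes from -0.15 to 0.01. With slide as a block the dimmest group was at 0.43 and the median of all genes at 0.24. Olfactory, vomeronasal and trace amine receptors, a list chosen after the values were seen, are best known from sensory neurons and are dim here: 569 of 607 lay below 0, with a median of -0.67 on ND and -0.62 on HFD. Of these 607, 186 had an unadjusted p under 0.05 with 5 months lower and 0 with 5 months higher. Over all genes these shares were 9.17% and 2.87%. In the dimmest group, of 1836 genes, the counts were 289 lower and 16 higher. The median of the receptor list was -0.32 with cyclic loess and 0.43 with slide as a block. The part of slide in this pattern cannot be told apart from that of age. In what follows the median of a list is to be read beside -0.15, the median over all genes, and beside its value with cyclic loess. Medians near 0 rest on single samples: leaving out 1 sample turned the sign of 5 to 9 of the 50 list medians, and slide as a block turned 31.

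The list that stood farthest from 0 was that of mitosis genes, which build the spindle, join chromosomes to it and drive cells through division. Of 28 tested, 23 lay above 0, with a median of 0.96 on ND, but none passed the test and the spread between samples was wide. The median level of the list was 0.62, -1.48 and 0.19 on the 5-month arrays and -0.58, -1.62 and -1.97 on the 2-month arrays, so 5-month sample 2 lay among the 2-month samples. On HFD 26 of 28 lay above 0, with a median of 1.62. With slide as a block the ND median turned to -0.93, between the single ND anagen arrays it was -0.01, and it moved with each sample left out: without 5-month sample 1, 2 or 3 it was 0.45, 2.15 or 0.64, and without 2-month sample 1, 2 or 3 it was 1.45, 0.43 or 0.47.

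Cenpf, a kinetochore protein made in G2 and mitosis, read 0.63, 0.47 and 0.19 at 5 months and -3.76, -5.01 and -4.16 at 2 months, a difference of 4.74 ± 1.11 (adjusted p = 0.202). Kif23, a kinesin of the central spindle, read -0.84, -0.45 and 1.45 against -2.08, -3.43 and -3.72, a difference of 3.13 ± 1.11 (adjusted p = 0.338). Both sets were separate, and the other probe of each gave a smaller difference, 1.30 for Cenpf and 0.95 for Kif23. Mki67, the proliferation antigen Ki-67, read 2.29, 0.89 and 2.28 against 2.50, 1.06 and -3.13, and its difference was 1.68 ± 1.49, with a single low 2-month sample. Prc1, which bundles spindle microtubules, differed by 1.80 ± 0.99, and Cdc20, which activates the anaphase-promoting complex, by -0.89 ± 0.37 with its other probe at 1.32. DNA replication genes, which copy the genome ahead of mitosis, had 23 of 32 above 0 and a median of 0.27 (0.37 on HFD). With slide as a block 13 of 32 lay above 0 with a median of -0.13; without 5-month sample 1, 2 or 3 the median was 0.14, 0.63 or 0.10, and without 2-month sample 1 or 2 it was 0.47 or 0.085.

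**Figure D4:**
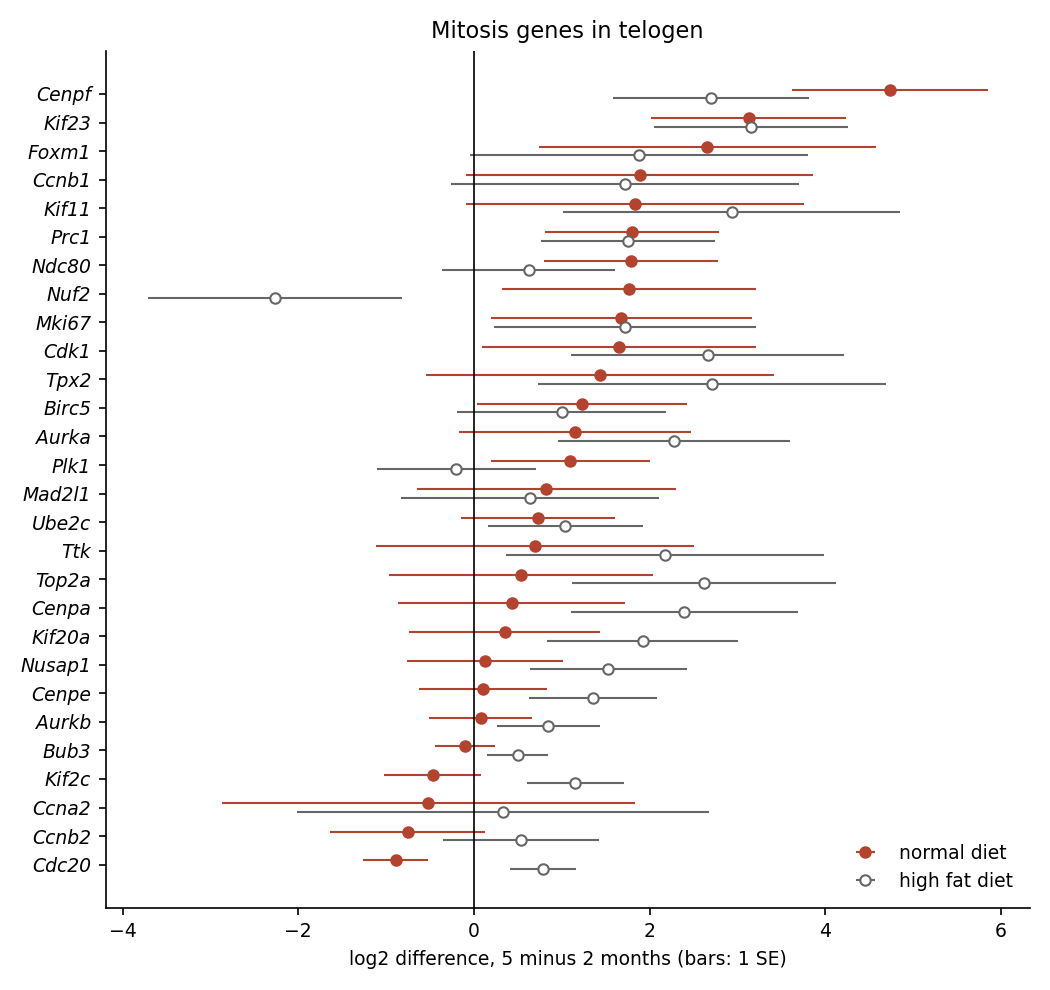
Log2 difference, 5 minus 2 months (horizontal axis), of the 28 tested mitosis genes on ND (red) and HFD (open grey), with bars of 1 SE; genes are ordered by the ND difference. The ND points run from -0.89 (Cdc20) to 4.74 (Cenpf), with 23 above 0, and most bars are over 1 log2 unit wide.

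Promoters of mitosis genes are known to carry CCAAT boxes, bound by the factor NF-Y, and a cell cycle homology region through which the DREAM complex silences them in resting cells. The promoters of the 4 members named by the rule are shown so that these letters can be seen beside the values above. They are the 250 bases before the gene's start, 5′ to 3′ on the gene's strand, from RefSeq on GRCm38.p6, and capitals mark CCAAT and TTTGAA on either strand (ATTGG and TTCAAA on the other).
Cenpf (chr1:189688087-189688336, minus strand): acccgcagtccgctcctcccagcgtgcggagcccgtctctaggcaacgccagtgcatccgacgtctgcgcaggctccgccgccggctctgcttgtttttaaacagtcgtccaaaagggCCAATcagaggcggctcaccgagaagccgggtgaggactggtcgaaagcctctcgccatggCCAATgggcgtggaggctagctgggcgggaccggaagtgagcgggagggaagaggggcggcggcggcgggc
Kif23 (chr9:61946800-61947049, minus strand): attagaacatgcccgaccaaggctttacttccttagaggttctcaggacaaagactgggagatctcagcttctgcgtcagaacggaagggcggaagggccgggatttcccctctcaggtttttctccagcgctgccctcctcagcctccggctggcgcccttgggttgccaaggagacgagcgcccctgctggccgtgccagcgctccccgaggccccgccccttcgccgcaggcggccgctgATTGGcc
Prc1 (chr7:80294226-80294475, plus strand): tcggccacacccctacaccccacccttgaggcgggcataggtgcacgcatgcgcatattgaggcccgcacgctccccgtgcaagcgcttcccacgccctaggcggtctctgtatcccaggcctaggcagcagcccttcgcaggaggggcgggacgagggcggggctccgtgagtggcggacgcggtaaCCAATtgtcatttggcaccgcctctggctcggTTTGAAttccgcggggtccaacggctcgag
Cdc20 (chr4:118437344-118437593, minus strand): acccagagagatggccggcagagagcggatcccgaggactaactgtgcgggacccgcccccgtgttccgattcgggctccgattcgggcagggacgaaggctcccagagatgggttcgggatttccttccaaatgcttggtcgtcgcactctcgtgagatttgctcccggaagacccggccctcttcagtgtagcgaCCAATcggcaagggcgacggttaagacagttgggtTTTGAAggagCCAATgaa

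Cenpf holds 2 CCAAT boxes in these bases and Kif23 has 1, while Prc1 and Cdc20 hold both kinds of letters. For Prc1 the table has 2 starts, of which the one shown lies farther along the gene; the 250 bases before the other hold CCAAT but no TTTGAA. In windows from 250 bases before to 50 after the start, TTTGAA on either strand was present in 18 of the 25 mitosis genes with a window (72%) against 20.2% of 27025 genes. CCAAT was found in 19 of 25 (76%) against 41.1%. These are matches of letters in the reference and describe the list, not binding in these cells; Cenpf, with the largest difference, and Cdc20, with the lowest, both carry CCAAT.

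The cell cycle inhibitors that keep stem cells resting did not move as 1 group: 10 of 16 lay above 0, with a median of 0.26. That median went to -0.03 without 5-month sample 1, 0.42 without 5-month sample 2, 0.05 without 2-month sample 1 and -0.56 with slide as a block. Cdkn2b, the inhibitor p15 that TGF-beta signalling induces, read 0.21, -0.99 and 0.79 at 5 months and -3.72, -5.21 and -2.69 at 2 months, without overlap (3.88 ± 1.31, adjusted p = 0.337). Its other probe gave 4.22 and HFD gave 3.04 ± 1.31. Gadd45a, a stress gene that halts the cycle, read 0.46, -0.96 and -4.13 against 1.28, 1.29 and 1.58, with all 5-month values lower but spread over 4 log2 units. Cdkn1b, the inhibitor p27, read 3.13, 3.08 and 3.12 against 3.38, 3.16 and 2.98, a difference of -0.06 ± 0.35.

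Signals that set the length of telogen are taken in the order of ligand, receptor and target. Among 35 BMP and TGF-beta genes, 17 lay above 0 and the median was -0.06 (0.06 with cyclic loess). Of the ligands, Bmp2 read -1.07, -1.06 and -0.20 at 5 months and 0.64, 0.92 and -0.60 at 2 months (-1.09 ± 0.51, adjusted p = 0.426), overlapping in 1 sample, and on HFD it differed by -1.94 ± 0.51. Tgfb1 read -0.60, -1.15 and -0.07 against -3.78, -2.04 and -2.61 without overlap (2.20 ± 0.89, adjusted p = 0.368), with its other probe at 1.66. The receptor gene Acvr2b, which binds activins and BMPs, read 0.55, 1.39 and 0.88 against -1.68, -1.65 and -2.37 (2.84 ± 0.80, adjusted p = 0.273), while its other probe gave -0.33. The BMP targets Id1, Id2 and Id3 differed by -0.57 ± 0.37, -0.34 ± 0.38 and 0.38 ± 0.35.

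Wnt ligands and receptors had 11 of 26 above 0 and a median of -0.15 (-0.01 with cyclic loess), against a level median of -0.04. Wnt5b, which acts outside the beta-catenin branch, read -0.59, 1.34 and 1.49 at 5 months and -1.32, -0.95 and -0.40 at 2 months, a difference of 1.64 ± 0.53 (adjusted p = 0.324), with 5-month sample 1 among the 2-month values. Wnt inhibitors and targets had 8 of 23 above 0, with a median of -0.11 (-0.02 with cyclic loess). The inhibitor Sfrp5 read -0.88, -0.53 and -0.97 against -0.07, 0.26 and -0.05, and did not overlap (-0.85 ± 0.23, adjusted p = 0.248). It did not overlap on HFD either, at -0.85, -0.77 and -0.77 against -0.08, -0.13 and -0.17, on the same pair of slides. With slide as a block Sfrp5 differed by 0.14 ± 0.39 on ND. Nkd2, an inhibitor of Dishevelled, and Ccnd1, the cyclin D1 target of Wnt, differed by -0.85 ± 0.34 and -0.72 ± 0.31 with separate groups, and Axin2, a standard readout of Wnt activity, by 0.58 ± 0.91, with a second probe at -0.91. Tcf7, a partner of beta-catenin, read -0.51, -0.67 and 0.22 against -1.77, -3.18 and -2.83 (2.27 ± 0.73, adjusted p = 0.327).

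Hedgehog genes had 9 of 14 above 0 with a median of 0.23, which went to 0.0006 without 5-month sample 3, to 0.0056 without 2-month sample 2 and to -0.49 with slide as a block (5 of 14 above 0). The targets Gli1 and Ptch1 differed by 0.92 ± 0.60 and -0.06 ± 0.71. Notch genes had 14 of 20 above 0 (median 0.12), with the ligand Jag2 at 1.14 ± 0.50. On HFD 10 of 20 Notch genes lay above 0 (median -0.02), as did 10 on ND with slide as a block (median 0.13). FGF genes had 7 of 17 above 0 (median -0.20). With cyclic loess 9 of 17 FGF genes lay above 0 with a median of 0.03, and with slide as a block their median was 0.32. Of 25 Jak-Stat genes 15 lay above 0 (median 0.16), against 9 on HFD (median -0.14) and 12 on ND with slide as a block (median -0.16). Il6st, the gp130 receptor chain shared by cytokines of the interleukin 6 family, read 3.17, 2.97 and 3.01 against 1.32, 0.30 and 2.50 (1.68 ± 0.58, adjusted p = 0.337), with its other probe at 0.64. Among hormone and growth factor receptors, 19 of 30 lay above 0 (median 0.18); Erbb2 read 1.47, 1.56 and 1.53 against 0.66, -1.47 and 0.21 (1.72 ± 0.49, adjusted p = 0.280), with its other probe at -0.44.

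Genes of the basement membrane and of the adhesions that hold basal cells to it mostly lay above 0, 25 of 32, with a median of 0.35. This list had a median of 0.37 with cyclic loess (27 of 32 above 0). With slide as a block it was 0.43 with 20 of 32 above 0, where the median of all genes was 0.24. Leaving out samples in turn gave 0.19 (without 5-month sample 3) to 0.36, while on HFD the median of the list was 0.04 with 17 of 32 above 0. Hspg2, the heparan sulfate proteoglycan perlecan, read 2.77, 3.38 and 3.77 at 5 months and 2.70, 2.18 and 1.89 at 2 months, a difference of 1.05 ± 0.38 (adjusted p = 0.338). Itga3, the integrin chain that binds laminin-332, read 4.92, 4.52 and 4.39 against 3.80, 3.63 and 3.97 (0.81 ± 0.32, adjusted p = 0.352). Plec, the plectin of hemidesmosomes, read 4.54, 4.80 and 5.00 against 4.46, 3.65 and 4.11 (0.71 ± 0.32, adjusted p = 0.410). These 3 of 32 were the members whose groups were separate, all higher, against 4.44% of all genes higher and 19.7% lower, and both probes of each lay above 0. Itga2, the collagen-binding integrin chain, differed by -1.64 ± 0.58, and Col17a1, the hemidesmosomal collagen by which follicle stem cells keep their niche, by 0.18 ± 0.24, at 6.85, 6.88 and 6.98 against 6.43, 6.71 and 7.03.

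**Figure D5:**
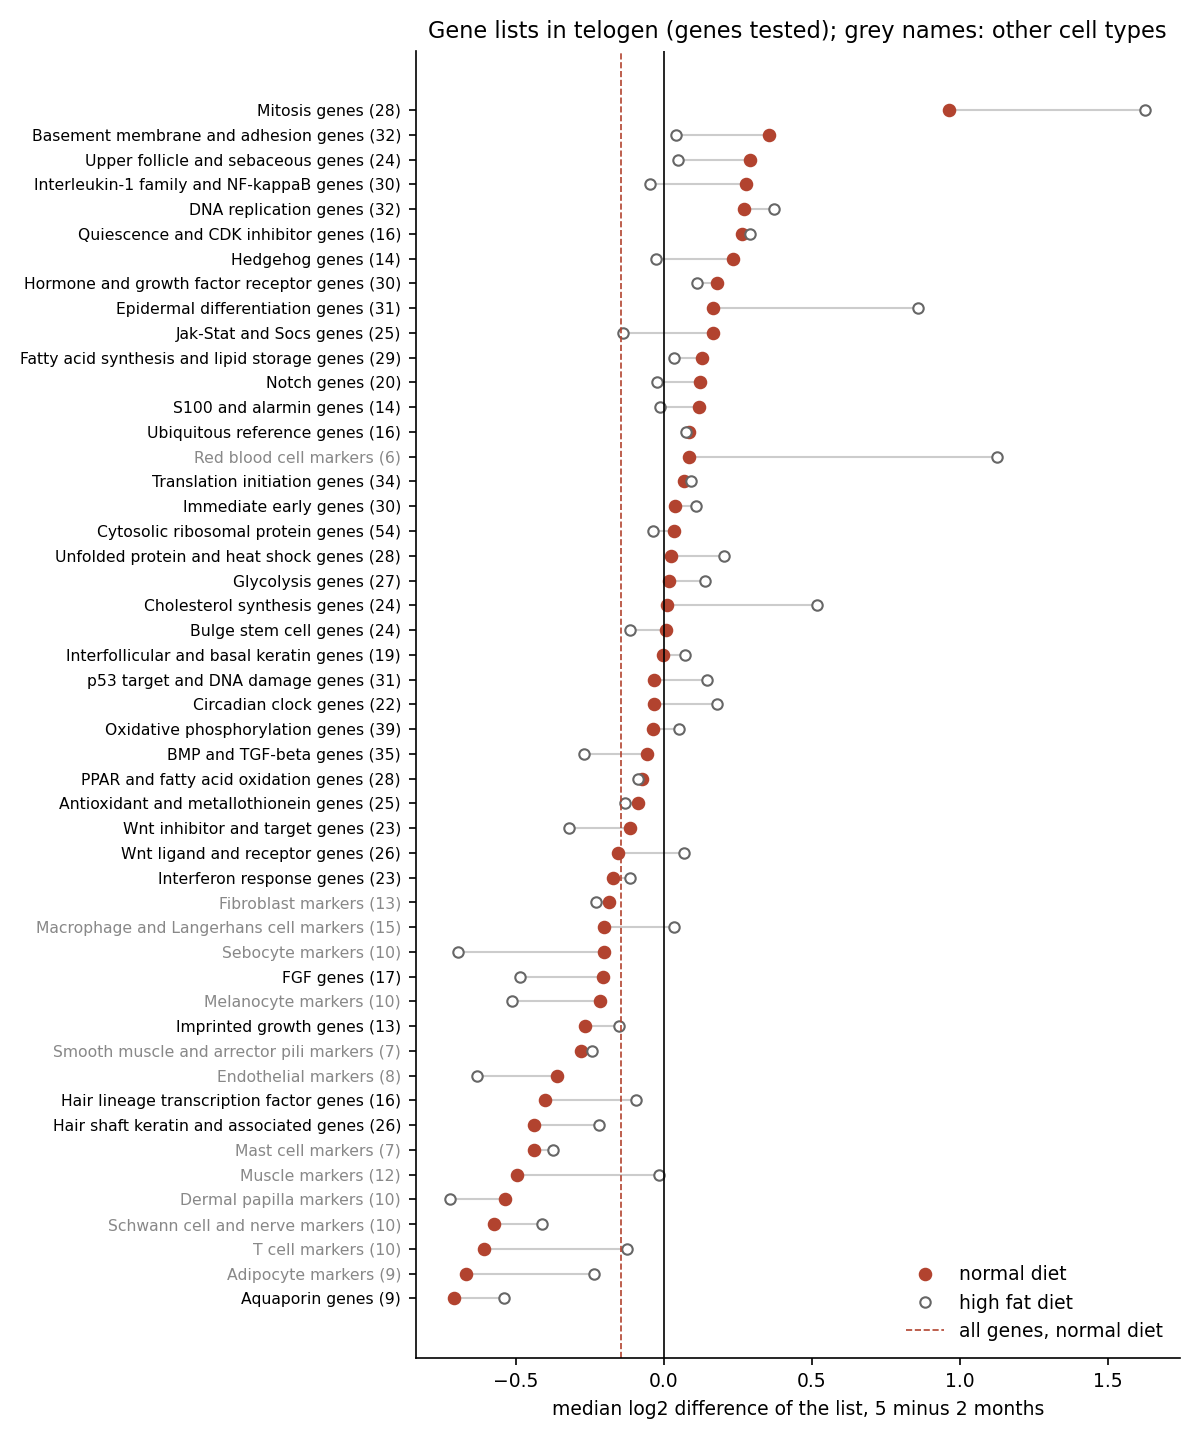
Median log2 difference, 5 minus 2 months (horizontal axis), of each gene list on ND (red) and HFD (open grey); the number of genes tested is in brackets, and the dashed line is the ND median over all genes, -0.15. Mitosis genes lie highest on both diets at 0.96 and 1.62, and aquaporin genes lowest on ND at -0.71.

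Differentiation genes gave no common shift. Interfollicular and basal keratins had 9 of 19 above 0 (median -0.0025), with Krt14, the basal keratin, at 6.54, 6.32 and 6.42 against 5.89, 6.35 and 6.26. Epidermal differentiation genes had 19 of 31 above 0 (median 0.16 on ND and 0.86 on HFD). The ND median went to -0.22 without 2-month sample 2 and 0.63 without 2-month sample 3, and with slide as a block it was -1.24 with 8 of 31 above 0. Cst6, an inhibitor of the proteases that shape the cornified layer, read 3.62, 2.93 and 3.49 against 2.32, 1.74 and 2.81 without overlap (1.06 ± 0.35, adjusted p = 0.336). Krt1 and Krt10, keratins of the layers above the basal one, lay at 0.75 ± 0.64 and 0.44 ± 0.38. Hair shaft keratin genes, which are silent in telogen bulge cells, were dim. Of 26, 6 lay above 0, with a median of -0.44, the same as their level median. After cyclic loess 11 of 26 lay above 0, with a median of -0.08. Transcription factors of the hair lineages had 4 of 16 above 0 (median -0.40, and -0.26 with cyclic loess). On HFD 7 of 16 lay above 0 (median -0.09), and with slide as a block 9 of 16 did on ND (median 0.10). Upper follicle and sebaceous genes had 15 of 24 above 0 (median 0.29, but 0.11, 0.58 or 0.16 without 5-month sample 1, 2 or 3, and 0.74 or 0.12 without 2-month sample 1 or 2); Lrig1, a marker of junctional zone stem cells, differed by 0.84 ± 0.38.

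Aquaporins, channels for water and glycerol, were the list farthest below 0 on ND, with 1 of 9 above 0 and a median of -0.71 (-0.54 on HFD, -0.51 with cyclic loess, 0.30 with slide as a block, and -0.44 without 5-month sample 2). Aqp2 read -2.02, -2.01 and -2.11 at 5 months and -0.93, -1.17 and -1.51 at 2 months, without overlap (-0.84 ± 0.29, adjusted p = 0.337), and Aqp8, Aqp6 and Aqp4 differed by -1.02, -1.04 and -0.54. All 4 were dim, and none passed the test. The level median of the list was -0.19.

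Genes of inflammation and stress were tested since resting follicles respond to both. Interleukin 1 family and NF-kappaB genes had 17 of 30 above 0 and a median of 0.28, which went to 0.0036 without 2-month sample 2, 0.17 without 2-month sample 3, 0.15 without 5-month sample 3 and 0.52 without 2-month sample 1. Nfkbiz, an inducible partner of NF-kappaB, read -0.13, -0.31 and 1.07 at 5 months and -3.70, -1.61 and -1.26 at 2 months (2.40 ± 0.64, adjusted p = 0.248), with its other probe at 3.50. Birc3, an NF-kappaB target that blocks cell death, read 0.17, 0.68 and 0.77 against -3.07, -2.36 and -0.14 (2.40 ± 0.80, adjusted p = 0.333). Il1b itself was dim and differed by -0.48 ± 0.40, and Il1r1, its receptor, by 1.32 ± 0.84. Interferon response genes had 9 of 23 above 0 (median -0.17), and 13 of 23 with a median of 0.03 after cyclic loess. Bst2, the tether of budding virus, read -0.31, 0.25 and 0.01 against 0.78, 1.37 and 1.40 (-1.20 ± 0.29, adjusted p = 0.202) and differed by -1.49 ± 0.29 on HFD.

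Immediate early genes, which switch on within minutes of growth factors, stress or tissue handling, were split. Of 30, 17 lay above 0 with a median of 0.04, but 6 were separate with 5 months higher and 2 with 5 months lower, against 4.44% and 19.7% of all genes. Fos, a subunit of the AP-1 factor, read 2.99, 0.90 and 0.18 at 5 months and -1.60, -5.44 and -0.73 at 2 months (3.94 ± 1.33, adjusted p = 0.337). Egr1, a zinc finger factor, read 5.49, 3.85 and 3.91 against 3.50, 2.56 and 3.57 (1.21 ± 0.53, adjusted p = 0.393), and the heat shock gene Hspa1a 2.47, 1.90 and 2.09 against 1.27, 1.28 and 1.50. The orphan receptor Nr4a3 went the other way, at -0.16, -0.33 and -0.48 against 0.57, 0.49 and 0.06. On HFD, Fos differed by 2.71 ± 1.33 and Egr1 by 1.25 ± 0.53. With slide as a block, Fos and Egr1 differed by 0.11 and 0.15. The time the cells were handled is not stated in these sources, and its part in these values was not tested.

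Unfolded protein and heat shock genes had 15 of 28 above 0 (median 0.02), with Atf6, a sensor of the endoplasmic reticulum, at 2.03, 1.27 and 2.89 against 0.23, -2.82 and 0.12 (2.89 ± 0.92, adjusted p = 0.324). Antioxidant and metallothionein genes had 9 of 25 above 0 (median -0.09) and p53 target and DNA damage genes 14 of 31 (median -0.03). Cdkn1a, the p53 target p21, read 2.66, 1.09 and 1.51 against 0.03, 1.76 and 2.47, in overlapping order (0.33 ± 0.60). S100 and alarmin genes had 11 of 14 above 0 with a median of 0.12, which went to 0.0079 without 2-month sample 1. On HFD 6 of 14 lay above 0 (median -0.01), and on ND with slide as a block 12 did (median 0.59).

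Metabolic gene lists had medians close to 0 on ND. The medians were 0.01 for cholesterol synthesis (12 of 24 above 0), 0.13 for fatty acid synthesis and lipid storage (17 of 29), -0.07 for PPAR and fatty acid oxidation (12 of 28) and 0.02 for glycolysis (14 of 27). The cholesterol synthesis median was not stable. It was 0.52 on HFD (19 of 24 above 0) and -0.49 on ND with slide as a block (6 of 24). Without 2-month sample 1 or 2 it was 0.23 or -0.25. Fads2, the desaturase that starts the making of long polyunsaturated fatty acids, read -0.43, -0.33 and -0.57 at 5 months and 0.41, 0.43 and 0.74 at 2 months (-0.97 ± 0.26, adjusted p = 0.248), and its other probe gave -0.73. Acadl, an enzyme of beta-oxidation, read 1.20, 1.18 and 1.47 against 2.03, 2.05 and 2.20 (-0.81 ± 0.26, adjusted p = 0.324), also without overlap. Pfkfb4, which tunes glycolytic flux, read -2.41, -5.27 and -2.76 against -8.38, -7.38 and -7.97, where it was not detected, at least 5.42-fold higher at 5 months (adjusted p = 0.202), while the HFD difference was -2.03 ± 1.09. Scd1, a desaturase of fat synthesis, and Plin2, a coat protein of lipid droplets, differed by -0.13 ± 0.44 and 0.13 ± 0.47, the latter with a second probe at -0.70. Ribosomal protein genes, which are bright, had 35 of 54 above 0 with a median of 0.04. That median was -0.03 with cyclic loess (24 of 54 above 0), -0.19 without 2-month sample 1 and 0.67 with slide as a block (54 of 54). Their median level was 6.06, 5.82 and 5.91 on the 5-month arrays and 5.42, 6.14 and 6.05 on the 2-month arrays. Circadian clock genes had 10 of 22 above 0 with a median of -0.03.

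Markers of other cell types were examined because a sorted or enriched fraction can hold some of them. Of 166 marker genes in 13 lists, 127 were tested, and 85 of these lay below 0. The medians of 12 of the 13 lists lay below 0, from -0.19 (fibroblast) to -0.67 (adipocyte), and the red blood cell list lay at 0.08. These lists are mostly dim, and the level median of both the fibroblast and the adipocyte list was -0.37. With cyclic loess 9 of the 13 lists lay below 0. The summed signal of each of the 13 lists overlapped between the ages. A sum is led by its brightest members and does not show how many members differed. Of 12 muscle markers, 7 were separate and lower at 5 months and 1 higher, against 19.7% and 4.44% of all genes. Their sums were 1.32 to 1.88 at 5 months and 1.77 to 2.92 at 2 months. The median of the muscle list was -0.50, with a level median of -0.44, and -0.10 with cyclic loess. In group 3 of the 10 by signal, which holds its median level, 302 of 1835 genes were lower and 48 higher at an unadjusted p under 0.05. For macrophage and Langerhans cell markers the sum ran from 169 to 214 times the 75th percentile at 5 months and from 165 to 212 at 2 months, and for fibroblast markers from 61.9 to 64.5 and from 55.8 to 66.8. For T cell markers these sums were 4.42 to 7.98 and 5.11 to 9.14, where Cd3e, a chain of the T cell receptor complex, read -1.77, -1.70 and -1.56 against 0.89, -0.78 and 0.49 (-1.88 ± 0.50, adjusted p = 0.248). Actg2, an actin of smooth muscle, read 0.56, 0.33 and 0.44 against 1.49, 1.96 and 1.94 (-1.35 ± 0.30, adjusted p = 0.198), with -1.17 ± 0.30 on HFD, while the smooth muscle sums were 42.2 to 49.0 and 38.6 to 51.4. The members of that list split: 3 of 7 lay above 0, up to 2.88 ± 1.92 for Synpo2, named here as the highest, and the median was -0.28, or 0.05 with cyclic loess. In bulk samples fewer cells of a type and less RNA per cell cannot be told apart.

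The same ages could be compared on HFD, in arrays that share no sample with the ND comparison but lie on the same pair of slides. There 0 of the 18354 genes passed (limma, smallest adjusted p = 0.0555), with 2143 (11.7%) at an unadjusted p under 0.05. Of the 526 genes higher at 5 months on ND at an unadjusted p under 0.05, 319 (60.7%) lay above 0 on HFD, where 41.4% of all genes did. Of the 1683 lower genes, 1510 (89.7%) lay below 0 on HFD. The lower genes are also the dimmer ones, as given above. The difference between the diets was tested as an interaction, in which 0 genes passed (limma, smallest adjusted p = 0.395) and 692 (3.77%) had an unadjusted p under 0.05. Its precision was lower, with a median 95% half-width of 1.59, and a p that misses the threshold does not show that the diets acted alike. For Ddx28 the HFD difference exceeded the ND difference by 3.13 ± 0.51 (adjusted p = 0.395).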

How the data were processed

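Total RNA was column-purified and labelled with Cy3 as cDNA, per the labels' protocols, and hybridised to 1 array per sample. Per the file headers, the scanner files hold spot intensity with flags for signal well above background, and the submitters' processing notes name Agilent Feature Extraction 10.7.1.1. The deposited series table gives 1 linear intensity per probe; set against the scanner files, it is the processed intensity over that array's 75th percentile, uncentred. No spot was saturated.

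The log2 of the deposited intensity was fitted with limma 3.58.1 (R 4.3.3) over the 15 telogen arrays with 5 groups, and contrasts were adjusted by Benjamini-Hochberg over 18354 genes. Tables and figures were made with Python 3.11.15, pandas 2.3.3 and matplotlib 3.10.9. Of 56605 probes, 32994 matched 1 RefSeq symbol by accession and 23611 matched none and were left out. A gene is its tested probe with the highest mean over those arrays. ± is SE unless said otherwise.

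Named were, per direction, up to 15 genes with the largest difference among called genes whose groups were separate, without predicted names, or, as here, with under 10 such genes, the 15 with the smallest p; up to 4 members per list with the smallest p; and a set of key genes. A called gene that these rules name is not reported here. The comparison, members and lists were chosen with earlier results of these data known. On simulated data with this design, 2.99%, 31.3% and 51.5% of genes changed by 2-, 4- and 8-fold were called (67, 67 and 66 genes among 18354), with 3 false calls. Settings tried are listed with their effect at the end.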

Additional observations from a re-analysis of the deposited data

How the results depend on the processing

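The 3 ND calls (limma, Benjamini-Hochberg) became 0 with only the 6 arrays compared, where 2782 genes had an unadjusted p under 0.05, and 0 with a replicate block, where 1992 did. They became 6 with normexp and quantile normalization, 9 with array weights, 6 with slide as a block and 6 at an adjusted p under 0.1; of these, 2, 3, 0 and 3 were among the 3. The sample numbers gave no pairing (correlations of 5- with 2-month samples were -0.04 to 0.03, and not every sample was closest to its own number), and the block left the other counts at 0. Leaving out 1 sample gave 0 to 8 calls: 1 without 5-month sample 1, 0 without 5-month samples 2 or 3 or 2-month sample 1, and 8 without 2-month sample 2; without 2-month sample 3 there were 3, of which 1 was among the 3. The other settings, among them the scanner signals, quantile or median scaling, cyclic loess (added after seeing the data), other filters and eBayes with trend or robust, gave 2 to 4. The HFD count of 0 became 3 with normexp, 3 with quantile normalization, 1 with the stricter filter, 1 with array weights, 9 with slide as a block, 1 at an adjusted p under 0.1, and 0 to 1 on leaving out a sample (1 without HFD 5-month sample 1). The interaction count of 0 became 1 with only the arrays compared and 1 with median scaling. With slide as a block, 102 of 259 named genes and 31 of 50 list medians changed sign, with a median SE of 0.98 against 0.52; with cyclic loess 6 and 10 did. The number of arrays and the signal over background limit all of these.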

Other observations

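Detection differed between the ages on ND. Among the tested genes, 1483 were well above background on all 3 arrays at 2 months but not at 5 months, and 471 the other way round. Of these, 233 were well above background on all 3 arrays at 2 months and on none at 5 months, and 16 the reverse, among them Exog, Ppp1r3d, Meis2, Stx19, Pfkfb4 and Ifit1. Ifit1, an interferon-induced gene that binds foreign RNA, read -5.27, -4.51 and -3.82 at 5 months and -6.80, -6.97 and -6.38 at 2 months, at least 2.62-fold higher at 5 months (adjusted p = 0.450), while its HFD difference was -2.40.

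The median SD of a gene over 3 samples was 0.42 at 5 months and 0.49 at 2 months, and it was larger at 2 months in 59.5% of genes. In some genes 1 sample stood apart. Fn1, fibronectin, read 0.00, -7.97 and -1.88 at 2 months and -2.41, -1.69 and -0.51 at 5 months, and Tfrc, the transferrin receptor, read -1.40, -6.80 and 0.94 at 2 months and -0.72, 0.42 and 0.94 at 5 months. Hba-a1, an alpha globin chain of red blood cells, read 0.34, 2.06 and 0.89 at 5 months and -1.89, -1.37 and 1.22 at 2 months, a difference of 1.78 ± 0.95.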
